A study of Mus musculus with 15 samples.

Results

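The genes described here carry salt out of the urine along the distal nephron, together with the main protein of normal urine. They are 10 of the 54532 genes in the deposited table, chosen by name and matched by Ensembl identifier: Slc12a1, Kcnj1, Bsnd and Umod of the thick ascending limb, Slc12a3, Wnk4 and Wnk1 of the distal convoluted tubule, and Scnn1a, Scnn1b and Scnn1g, the subunits of the epithelial sodium channel. They were measured in 1 kidney each of 15 male C57BL/6 mice, 8 weeks old at the start and killed after 8 weeks, in 3 groups of 5. The control group (C) ate a normal diet. The CKD model group (M) ate chow with 0.25% adenine for 4 weeks and a standard diet afterwards, which damages the tubules and leaves the kidney inflamed and fibrotic. The AA group received the same adenine chow and 30 mg/kg of asiatic acid, a plant triterpenoid, by daily gavage throughout. C and M mice received the vehicle, DMSO in saline. The question put to these genes was how far adenine lowered them and whether AA changed that.

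Messenger RNA was read after poly-A selection. Values are in FPKM, fragments per kilobase of gene scaled to a library size, so levels can be set side by side between genes of a library. The reads behind the values, recovered from the steps of the FPKM columns, ranged from 1.37e+07 to 2.89e+07 per library, of which mitochondrial genes took 53.0 to 62.5% in C, 64.0 to 86.8% in M and 69.2 to 87.2% in AA. The library size that the FPKM scaling implies was not this recovered total. Reads outside mitochondrial genes came to 20.4 to 31.4% of it in C, 19.9 to 22.9% in M and 20.8 to 24.7% in AA. The FPKM of a library summed to between 263859 and 1.48e+06. M replicates 1, 2 and 3 stood apart, with 10068 to 12222 genes above 0 against 18695 to 25460 in the other 12 libraries. Xist, the RNA of the inactive X chromosome of female cells, was 2.55 and 1.45 FPKM in M replicates 2 and 3 and at most 0.119 in the other 13 libraries, while the Y-linked Ddx3y was at least 1.63 in all 15. These 2 libraries therefore go in part against their label of male mice, and the members' differences that rest on the M group are also given without them. An exact 0 is reported only as listed at 0, because Gapdh, which every cell uses, was also listed at 0 in M replicate 1 and AA replicates 1 and 2. Such zeros were rare among 26 ubiquitous genes. There 1 was listed at 0 in each of M replicate 2 and AA replicates 1, 2 and 5, and 0 in every other library. Gapdh was 2.63 to 12.9 FPKM in C, 3.31 and 7.21 in M replicates 4 and 5, and at most 0.834 in M replicates 1 to 3. In AA it was at most 0.0967, wholly below C, so low values in AA were not limited to genes of the distal nephron. C replicates 1 and 3 held 255 and 437 FPKM of Aqp2, the water channel of the collecting duct, against 20.6 to 29.6 in C replicates 2, 4 and 5. In whole kidney, fewer cells of a type and less RNA per cell cannot be told apart.

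The thick ascending limb takes up sodium, potassium and chloride through the cotransporter NKCC2 (Slc12a1), recycles potassium through the channel ROMK (Kcnj1), and lets chloride leave on the blood side with the help of barttin (Bsnd), an accessory subunit of channels. The same cells secrete uromodulin (Umod), which polymerises in the urine. Further along, the distal convoluted tubule takes up sodium and chloride through NCC (Slc12a3), the target of thiazides, under the kinases WNK4 and WNK1, and the connecting tubule and collecting duct take up the remaining sodium through the epithelial sodium channel ENaC.

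The sequences before the start sites of 4 members are shown because Slc12a1, Slc12a3 and Wnk4 were lower in adenine-fed kidneys with AA while Umod was not. They come from RefSeq (GRCm38.p6), where 8 of the 10 members had an entry, run 5′ to 3′ on the strand of the gene, and end before the gene's start in GENCODE. Capitals mark CCAAT or its reverse complement ATTGG, the TATA box TATAAA, and GTTAAT, part of the HNF1 site. Both strands were searched for these letters, for AAGGTCA and for TGACG.
Slc12a1, chr2:125152350-125152504, plus strand: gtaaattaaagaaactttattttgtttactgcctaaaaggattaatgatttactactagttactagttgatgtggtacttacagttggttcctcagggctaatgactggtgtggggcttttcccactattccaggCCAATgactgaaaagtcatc
Umod, chr7:119479283-119479512, minus strand: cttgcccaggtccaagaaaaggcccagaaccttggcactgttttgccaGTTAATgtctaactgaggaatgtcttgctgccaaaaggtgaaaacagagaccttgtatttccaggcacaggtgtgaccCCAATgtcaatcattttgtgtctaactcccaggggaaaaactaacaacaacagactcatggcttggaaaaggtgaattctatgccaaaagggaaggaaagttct
Slc12a3, chr8:94328958-94329200, plus strand: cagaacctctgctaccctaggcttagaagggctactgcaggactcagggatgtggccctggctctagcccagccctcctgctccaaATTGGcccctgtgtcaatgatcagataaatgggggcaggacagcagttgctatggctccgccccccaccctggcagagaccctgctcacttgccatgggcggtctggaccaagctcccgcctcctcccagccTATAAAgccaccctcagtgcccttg
Wnk4, chr11:101260317-101260566, plus strand: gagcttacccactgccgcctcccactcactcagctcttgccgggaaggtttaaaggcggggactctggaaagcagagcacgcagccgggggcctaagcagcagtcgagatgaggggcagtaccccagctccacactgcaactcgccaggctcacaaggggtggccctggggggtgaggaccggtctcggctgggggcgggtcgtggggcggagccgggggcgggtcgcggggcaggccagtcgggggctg
In the 250 bases before the RefSeq start, CCAAT was found in 4 of the 8 members (Slc12a1, Slc12a3, Umod and Kcnj1) and in 33.8% of 32851 windows of the same length. TATAAA was found in Slc12a3 alone among the 8 and in 12.4% of all windows, GTTAAT in Umod alone and in 6.43%, TGACG in Kcnj1 alone and in 17.8%, and AAGGTCA in none of the 8 and in 4.08%.

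Of the 10 genes, 6 were lower in AA than in C and 2 were lower in M than in C, and none passed the test between AA and M with all libraries. Limma was fitted to log2(FPKM + 1) over all genes, and a gene was called where its adjusted p did not exceed 0.05 and it changed by 1 or more on the log2 scale. For M vs. C, 2 of the 10 members were called, both lower (Slc12a3 and Bsnd), where 1.11% of the 21153 genes tested were called lower. In AA vs. C, 6 of 10 were called, all lower (Slc12a1, Slc12a3, Wnk4, Bsnd, Scnn1a and Scnn1b), against 9.61% of 21898 genes. In AA vs. M, 0 of 10 were called, against 12.8% of 19798 genes called in either direction. There, 0 of 10 members had an unadjusted limma p under 0.05, against 6360 of the 19798 genes. All 10 members were above 0 in every C library and passed the filter on low values in every comparison. The members' median log2 fold change was -1.73 in AA vs. C and -1.63 in M vs. C, beside medians over all genes of 0.09 and -0.12, and it was 0.01 in AA vs. M beside 0.17. The comparisons share libraries (C in 2 of them, M in 2 and AA in 2), so their values are not independent of each other.

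**Figure D1:**
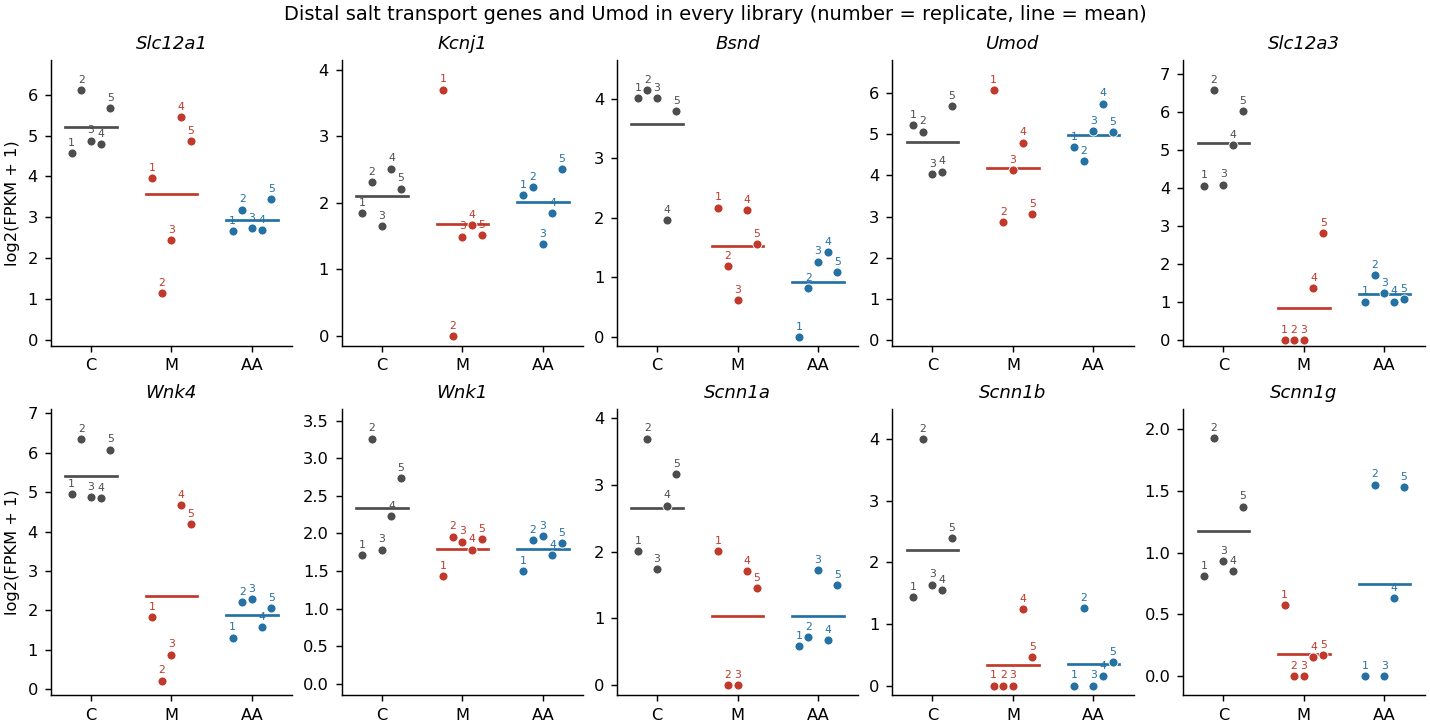
Level of each of the 10 genes in log2(FPKM + 1) (vertical axis, its range differing between panels) in every library of the C, M and AA groups (horizontal axis), with the replicate number beside each point and the group mean as a line. Slc12a3 lies at 0 in M replicates 1 to 3, Slc12a1 and Wnk4 are high in M replicates 4 and 5 and low in all AA libraries, and the 3 groups of Umod overlap.

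Slc12a1 (ENSMUSG00000027202, chr2:125152505-125230002, GRCm38, plus strand) was 22.9, 68.4, 28.4, 26.9 and 49.9 FPKM in C replicates 1 to 5, 14.5, 1.20, 4.42, 43.0 and 28.3 in M, and 5.29, 8.12, 5.62, 5.41 and 9.91 in AA. The AA libraries were close to each other and all below the lowest C library, while M ran from below AA up into the range of C. The group means were 39.3 ± 19.4 in C and 6.87 ± 2.06 in AA (SD, n = 5 each), a log2 fold change on the (FPKM + 1) scale of -2.27 ± 0.32 (SE, limma adjusted p = 0.000527). It was called in all 10 fits that left out a library. Against C, M differed by -1.64 ± 0.71 (limma adjusted p = 0.27), and with M replicates 4 and 5 only by -0.04 ± 0.46 (limma adjusted p = 0.989). Of AA vs. M, the value was -0.63 ± 0.66 with all libraries (limma adjusted p = 0.551). With M replicates 4 and 5 only, AA was lower by -2.23 ± 0.34 (limma adjusted p = 0.00826), and with M replicates 1, 4 and 5 by -1.82 ± 0.40 (limma adjusted p = 0.0461).

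Umod (ENSMUSG00000030963, chr7:119462711-119479282, minus strand) was 36.4, 32.5, 15.4, 16.1 and 50.4 FPKM in C, 66.7, 6.30, 16.5, 26.9 and 7.32 in M and 24.7, 19.4, 32.8, 52.8 and 32.3 in AA. All 3 groups overlapped, and M held both the highest and the lowest of the 15 values. The means of C and AA were 30.2 ± 14.7 and 32.4 ± 12.7 FPKM (SD, n = 5 each). AA differed from C by 0.16 on the log2 scale, with a 95% interval from -0.63 to 0.95, and by -0.91 (limma adjusted p = 0.148) once libraries were scaled to TPM, where the sign turned. M differed from C by -0.63 (95% interval -1.89 to 0.62) and AA from M by 0.80 (-0.37 to 1.97). These were -0.18 and 0.34 with M replicates 1, 4 and 5, and with M replicates 4 and 5 only -0.89 and 1.06, none called. In number of reads these values were well covered, with at least 182 recovered reads in each library.

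Kcnj1 (ENSMUSG00000041248, chr9:32372493-32399197, plus strand) had 2.61, 3.96, 2.15, 4.72 and 3.63 FPKM in C, 11.997, 0, 1.81, 2.17 and 1.86 in M, and 3.33, 3.73, 1.60, 2.58 and 4.68 in AA. C and AA covered almost the same range, and the single high value was that of M replicate 1. AA differed from C by -0.09 (95% interval -0.65 to 0.47), and it was called lower with TPM scaling (-1.03) and with limma voom on the recovered reads (-1.08), the limma adjusted p ranging from 0.0222 to 0.982 over 22 alternatives. Neither M vs. C (-0.43, limma adjusted p = 0.696) nor AA vs. M (0.34, limma adjusted p = 0.701) passed, and both signs turned with M replicates 1, 4 and 5 (0.19 and -0.28, neither called).

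Bsnd (ENSMUSG00000025418, chr4:106483456-106492283, minus strand) was 15.1, 16.7, 15.05, 2.88 and 12.8 FPKM in C, 3.50, 1.28, 0.534, 3.36 and 1.93 in M, and 0, 0.764, 1.40, 1.69 and 1.13 in AA. Every AA library was below every C library, and C replicate 4 alone put C and M in overlap. It was lower by -2.66 ± 0.42 in AA vs. C (limma adjusted p = 0.000974), called in all 10 fits that left out a library. In M vs. C it was lower by -2.05 ± 0.46 (limma adjusted p = 0.0462), a call that held in only 3 of 10 such fits, those without C replicate 4 or M replicate 4 or 5. Leaving out any of the other 7 libraries gave limma adjusted p from 0.071 without M replicate 1 to 0.129 without M replicate 3. The call was also lost with a pseudocount of 0.1 (-2.54, limma adjusted p = 0.0598) and with every other scaling but TPM and voom. With M replicates 4 and 5 only, M vs. C was -1.74 (limma adjusted p = 0.263), and with M replicates 1, 4 and 5 it was -1.63 (limma adjusted p = 0.314). AA vs. M was called, lower, only with centring on library medians (-1.13, limma adjusted p = 0.0456), and was -0.92 with M replicates 4 and 5 only (limma adjusted p = 0.199).

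Slc12a3 (ENSMUSG00000031766, chr8:94329201-94366214, plus strand), the thiazide-sensitive cotransporter, was 15.7, 93.8, 16.0, 33.8 and 64.1 FPKM in C, listed at 0 in M replicates 1, 2 and 3, 1.58 and 6.02 in M replicates 4 and 5, and 1.02, 2.27, 1.35, 1.01 and 1.11 in AA. Every M and every AA library was below the lowest C library, and AA was tightly grouped. The log2 fold change was -4.34 ± 0.64 in M vs. C (limma adjusted p = 0.0144) and -3.96 ± 0.45 in AA vs. C (limma adjusted p = 0.000217), among the lowest 0.0355% and 0.107% of all genes tested. The M vs. C call was lost without C replicate 5 (-4.12, limma adjusted p = 0.0586), without M replicate 3 (-4.13, limma adjusted p = 0.0513), with M replicates 4 and 5 only (-3.08, limma adjusted p = 0.144) and with M replicates 1, 4 and 5 (-3.78, limma adjusted p = 0.151). The AA vs. C call held in every alternative. AA differed from M by 0.37 (95% interval -0.69 to 1.43), a sign that turned with quantile normalization, with centring on library medians and with M replicates 4 and 5 only, where it was -0.88 (limma adjusted p = 0.214).

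Wnk4 (ENSMUSG00000035112, chr11:101260567-101277409, plus strand), a kinase that acts on NCC, was 30.1, 80.4, 28.1, 28.0 and 66.7 FPKM in C, 2.56, 0.161, 0.834, 24.5 and 17.2 in M, and 1.47, 3.61, 3.86, 1.99 and 3.17 in AA. M fell into low values in replicates 1 to 3 and higher values, still below every C library, in replicates 4 and 5, and all AA libraries were low. AA was lower than C by -3.54 ± 0.35 (limma adjusted p = 0.000111), called in all alternatives, from means of 46.7 ± 25.0 and 2.82 ± 1.04 FPKM (SD, n = 5 each). M vs. C gave -3.07 ± 0.78 and missed the threshold (limma adjusted p = 0.0763). It passed without M replicate 4 (-3.64, limma adjusted p = 0.0265) or without M replicate 5 (-3.52, limma adjusted p = 0.0275), and was -0.99 (limma adjusted p = 0.494) with only those 2 libraries. AA vs. M was -0.47 ± 0.73 with all libraries, turning to 0.11 without M replicate 4, and -2.54 ± 0.35 (limma adjusted p = 0.00678) with M replicates 4 and 5 only. With M replicates 1, 4 and 5 it was -1.68 (limma adjusted p = 0.108).

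Wnk1 (ENSMUSG00000045962, chr6:119923969-120038672, minus strand) was 2.27, 8.59, 2.44, 3.70 and 5.65 FPKM in C, 1.70, 2.88, 2.71, 2.45 and 2.80 in M, and 1.83, 2.75, 2.91, 2.27 and 2.65 in AA. M and AA lay in the lower part of the C range or, for replicate 1 of each, below it. The table sums all transcripts of a gene, so the long kinase and the short form of the distal tubule cannot be told apart. The differences were -0.55 in both M vs. C (95% interval -1.26 to 0.17) and AA vs. C (-1.19 to 0.09), and -0.01 in AA vs. M (-0.58 to 0.56). M vs. C was -0.63 and AA vs. M 0.075 with M replicates 1, 4 and 5, neither called. In AA vs. C it was called with TPM scaling (-1.51) and with limma voom on the recovered reads (-1.66).

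Of the ENaC subunits, Scnn1b and Scnn1g ranked 9 and 10 of the 10 members by median FPKM in C, and Scnn1a ranked 6. Scnn1a (ENSMUSG00000030340, chr6:125320659-125344943, plus strand), the pore-forming alpha subunit, was 3.01, 11.9, 2.34, 5.46 and 7.98 FPKM in C, 3.02, 0, 0, 2.28 and 1.73 in M, and 0.498, 0.644, 2.31, 0.588 and 1.82 in AA. AA lay wholly below C, though the highest AA library (2.31) and the lowest C library (2.34) were close. AA was lower by -1.62 ± 0.38 (limma adjusted p = 0.00725), and M by -1.63 ± 0.50 (limma adjusted p = 0.132), which was not called. M vs. C was called with TPM scaling (-2.53) and with voom (-5.18), and was -0.94 with M replicates 1, 4 and 5 (limma adjusted p = 0.585).

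Scnn1b (ENSMUSG00000030873, chr7:121865038-121918514, plus strand), the beta subunit, was 1.71, 15.1, 2.12, 1.93 and 4.27 FPKM in C, 0, 0, 0, 1.37 and 0.377 in M and 0, 1.39, 0, 0.111 and 0.307 in AA. Both adenine-fed groups lay below the lowest C library. AA was lower by -1.85 ± 0.46 (limma adjusted p = 0.00917), while M was lower by -1.87 ± 0.48 without passing (limma adjusted p = 0.0788). M vs. C passed among genes with a mean FPKM of at least 1 (limma adjusted p = 0.0471), with all 15 libraries in one fit (limma adjusted p = 0.0217), with TPM (-2.77) and with voom (-6.58). With M replicates 1, 4 and 5 it was -1.64 (limma adjusted p = 0.413).

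Scnn1g (ENSMUSG00000000216, chr7:121734479-121768475, plus strand), the gamma subunit, was 0.750, 2.80, 0.906, 0.800 and 1.59 FPKM in C, 0.490, 0, 0, 0.114 and 0.129 in M and 0, 1.93, 0, 0.552 and 1.89 in AA. M lay below C, whereas AA replicates 2 and 5 lay inside the C range. No call was made in M vs. C (-0.996 ± 0.26, limma adjusted p = 0.0801) or AA vs. C (-0.43 ± 0.36, limma adjusted p = 0.358), though both were called with TPM scaling (-1.81 and -1.24) and with limma voom on the recovered reads (-5.10 and -3.61). With M replicates 1, 4 and 5, M vs. C was -0.88 (limma adjusted p = 0.409). In AA vs. M, the 3 subunits gave 0.00 (Scnn1a), 0.02 (Scnn1b) and 0.56 (Scnn1g) on the log2 scale, none called, and the first pair of signs turned under TPM scaling (-0.12 and -0.20) and with M replicates 4 and 5 only (-0.54 and -0.50). Scnn1g was then 0.58 with M replicates 4 and 5 only and 0.44 with M replicates 1, 4 and 5, neither called.

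**Figure D2:**
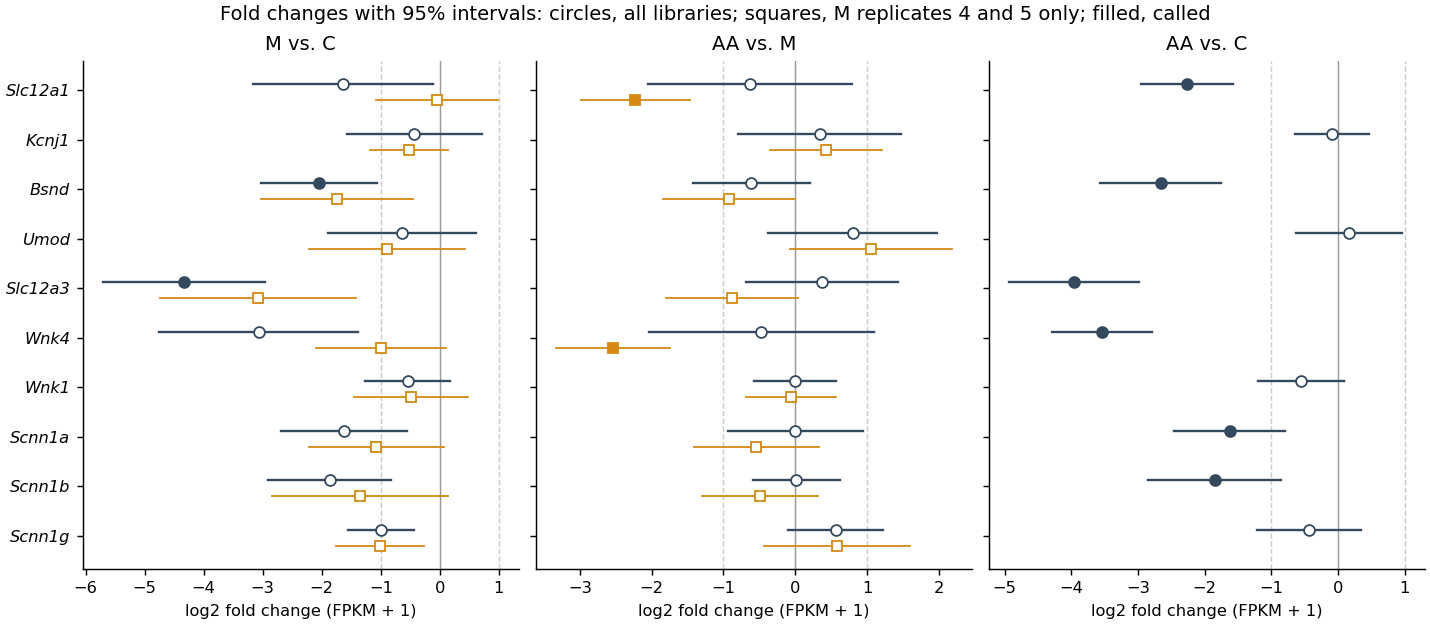
Log2 fold change on the FPKM + 1 scale (horizontal axis) with its 95% interval from limma for the 10 genes (vertical axis) in a panel for each of the 3 comparisons. Circles use all libraries, squares only M replicates 4 and 5, filled symbols were called and dashed lines mark a change of 1. In AA vs. M, Slc12a1 and Wnk4 are called, lower, only with M replicates 4 and 5.

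Counted by overlap, 4 of 10 members (Slc12a3, Wnk4, Scnn1b and Scnn1g) had every M library below every C library, against 3.67% of all genes tested. In AA vs. C this held for 6 of 10, the same as those called, against 12.5%. Between AA and M, 0 of 10 had groups apart, against 13.2% in either direction. With only replicates 4 and 5 in the M group, which leaves it 2 libraries, AA vs. M called 2 of 10 members lower (Slc12a1 and Wnk4) and 5.70% of all 20888 genes lower. With M replicates 1, 4 and 5, it called 1 of 10 lower (Slc12a1) and 0.556% of genes. In M vs. C with replicates 4 and 5 only, limma called 0 of 10 members and 0 of 22621 genes (0.00%), though 2642 genes and 3 members had an unadjusted p under 0.05. Keeping only C replicates 2, 4 and 5, those low in Aqp2, left the 6 members called in AA vs. C at 6 and those in M vs. C at 1, Slc12a3. Over all genes, 2325 were then called lower in AA vs. C and 251 in M vs. C.

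Ratios within a library do not depend on how libraries are scaled against each other, apart from the pseudocount of 1. A gene listed at 0 enters its ratio as the pseudocount alone. Of 21 tests, 7 ratios in 3 comparisons, 5 passed an adjusted p of 0.05 by the two-sided exact permutation test, whose smallest possible p with 5 libraries against 5 was 0.00794. The log2 ratio of Umod to Slc12a1, both of the thick ascending limb, was -0.39 ± 0.70 in C and 2.05 ± 0.73 in AA (SD, n = 5 each), higher in AA in 5 of 5 libraries with no overlap (exact p = 0.00794, adjusted p = 0.0333, and 0.0556 without AA replicate 4). In M it was 2.12, 1.73 and 1.69 in replicates 1 to 3 and -0.66 and -1.82 in replicates 4 and 5. M thus covered the range of C and reached into that of AA (1.16 to 3.07). Kcnj1 to Slc12a1 rose likewise from -3.10 ± 0.60 in C to -0.92 ± 0.29 in AA (exact p = 0.00794, adjusted p = 0.0333). Bsnd to Slc12a1 differed by -0.39 between AA and C (exact p = 0.452, adjusted p = 0.633).

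Slc12a3, of the distal convoluted tubule, fell further than Slc12a1. Their log2 ratio was -0.04 ± 0.57 in C, -2.74 ± 1.27 in M and -1.73 ± 0.37 in AA (SD, n = 5 each), below C in 5 of 5 libraries of both groups (exact p = 0.00794, adjusted p = 0.0333 for each). Slc12a3 was listed at 0 in M replicates 1 to 3, so the ratios there rest on Slc12a1 and the pseudocount alone. In M replicates 4 and 5, where it was above 0, the ratio was -4.09 and -2.06. For M vs. C the adjusted exact permutation p was 0.0667 when any C library was left out, and 0.111 with M replicates 4 and 5 only, where the log2 difference was -3.04 and the smallest p that 5 against 2 libraries allow was 0.0476. For AA vs. C it was 0.0556 without AA replicate 5. Wnk4 to Wnk1 fell from 3.08 ± 0.28 in C to 0.10 ± 0.24 in AA with no overlap (exact p = 0.00794, adjusted p = 0.0333). In M it was 0.40, -1.74 and -1.01 in replicates 1 to 3. In M replicates 4 and 5 it was 2.89 and 2.26, beside 2.62 to 3.35 in C. M against C did not pass (exact p = 0.0159, adjusted p = 0.0556). With a library left out, the adjusted exact permutation p ran from 0.0278 (without M replicate 4) to 0.214. The ENaC ratios did not pass in any comparison with all libraries. In M replicates 2 and 3 all 3 subunits were listed at 0, so their ratios there come from the pseudocount alone. Scnn1g to Scnn1a came nearest, 1.19 higher in AA than in C and above the C mean in 4 of 5 libraries (exact p = 0.0317, adjusted p = 0.0952), and passed without AA replicate 3 (exact permutation test, adjusted p = 0.0278). No ratio passed in AA vs. M.

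**Figure D3:**
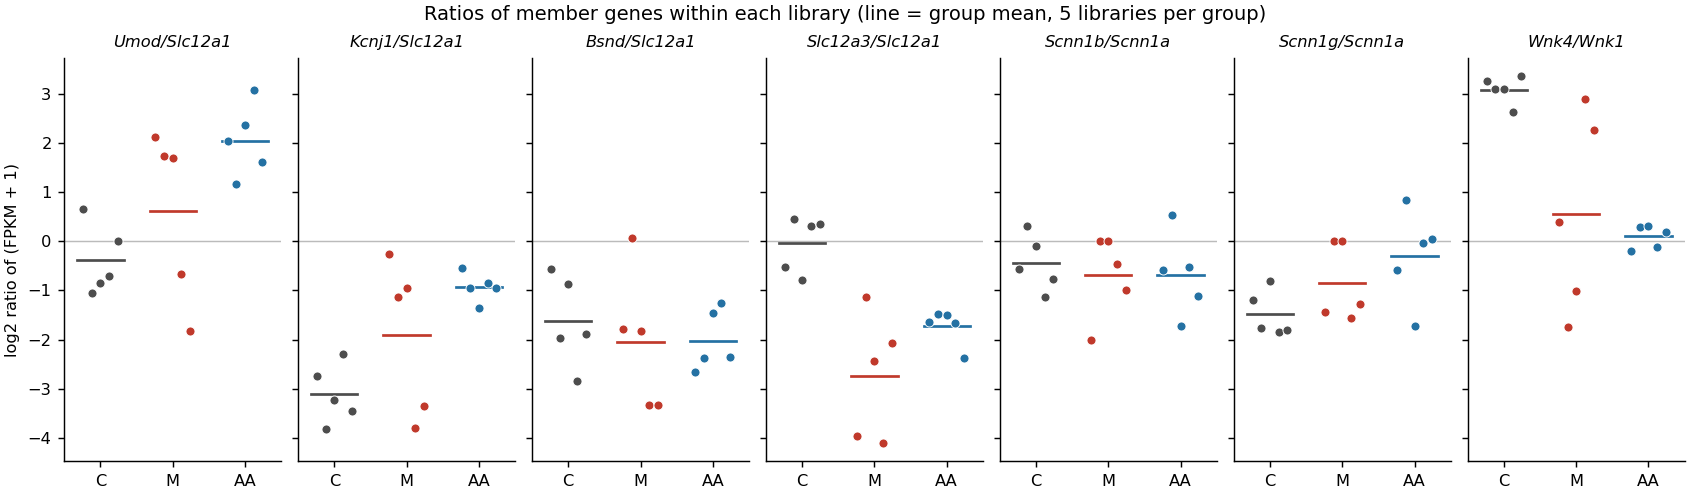
Log2 ratio of (FPKM + 1) of 2 member genes within each library (vertical axis) for 7 ratios in C, M and AA (horizontal axis), each point a library and each line a group mean. Umod/Slc12a1 and Kcnj1/Slc12a1 are higher, and Slc12a3/Slc12a1 and Wnk4/Wnk1 lower, in all 5 AA libraries than in all 5 C libraries.

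The order of the levels differed between groups. By median FPKM, C was led by Slc12a3 (33.8), Umod (32.5), Wnk4 (30.1) and Slc12a1 (28.4), whose ranges overlapped, and each library of Slc12a1 was above each of Bsnd, next at 15.05. In AA, Umod led at 32.3 with all libraries above those of Slc12a1 at 5.62, which in turn were above those of Kcnj1 at 3.33. Slc12a3 ranked 7 of 10 in AA, at 1.11. In M, Umod (16.5) and Slc12a1 (14.5) led with overlapping ranges. Within C, 8 of the 10 members were highest in replicate 2, Kcnj1 in replicate 4 and Umod in replicate 5. The genes with the most similar pattern over the 15 libraries, of 7206 above 0 in all, were described by Pearson's r of log2(FPKM + 1), which reflects the shared groups and depth. For Slc12a3 they were Slc34a1 (0.983), Col27a1 (0.981) and Klk1 (0.966), for Slc12a1 Mrpl24 (0.961), Sharpin (0.958) and Abhd11 (0.952), for Scnn1a Pth1r (0.951), Selenbp1 (0.951) and Epb41 (0.940), and for Umod Tmem204 (0.871), Rab1b (0.855) and Abca8a (0.841). Among members, Slc12a1 and Wnk4 were most alike (r = 0.951) and Kcnj1 and Wnk1 least (r = -0.01).

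A list of 21 other genes of distal salt handling, among them potassium channels, kinases, ubiquitin ligases, the mineralocorticoid receptor and claudins, is set beside the members. In AA vs. C 7 of 21 were called, all lower, against 9.61% of all genes, and in M vs. C 5, all lower, against 1.11%. In AA vs. M limma called 0, against 12.8% in either direction. There, 1 of the 21 had an unadjusted limma p under 0.05, against 6360 of 19798 genes. The median log2 fold change of the 21 was -0.51, -0.86 and 0.31 in AA vs. C, M vs. C and AA vs. M, beside 0.09, -0.12 and 0.17 over all genes. In M vs. C limma called 0 of 21 with M replicates 1, 4 and 5 (9 at an unadjusted p under 0.05), and 0 with M replicates 4 and 5 only (10 so). The AA vs. M median was then -0.0037 and -0.049. The single-gene values that follow use all libraries.

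Prss8, the protease that activates ENaC, was lower in both comparisons with C (-3.17 in M and -3.05 in AA), as were Hsd11b2 (-2.84 and -2.36), which keeps glucocorticoids from the mineralocorticoid receptor, and the chloride-bicarbonate exchanger Slc26a4 (-2.84 and -2.55), all called. Fxyd2, the gamma subunit of the sodium pump, gave -1.93 and -2.002 and Klhl3, the adaptor that marks WNK kinases for degradation, -1.73 and -1.55, again called in both. Ppp1r1b was called in AA vs. C only (-1.52), its M vs. C value being -1.83 (limma adjusted p = 0.0711). The kinase Sgk1 was called in AA vs. C (-1.10), but not with C replicates 2, 4 and 5 only. The kinases Stk39 and Oxsr1, which act between the WNKs and the cotransporters, were not called in any comparison, with Stk39 at -0.27 and 0.05 and Oxsr1 at -0.19 and 0.28 against C in M and AA. In AA vs. C, 3 of the 21 had a limma adjusted p under the threshold but fell short of the fold: the claudin Cldn10 (-0.97), the sodium-bicarbonate transporter Slc4a8 (-0.70) and Cldn16, a claudin of the thick limb (0.75).

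**Figure D4:**
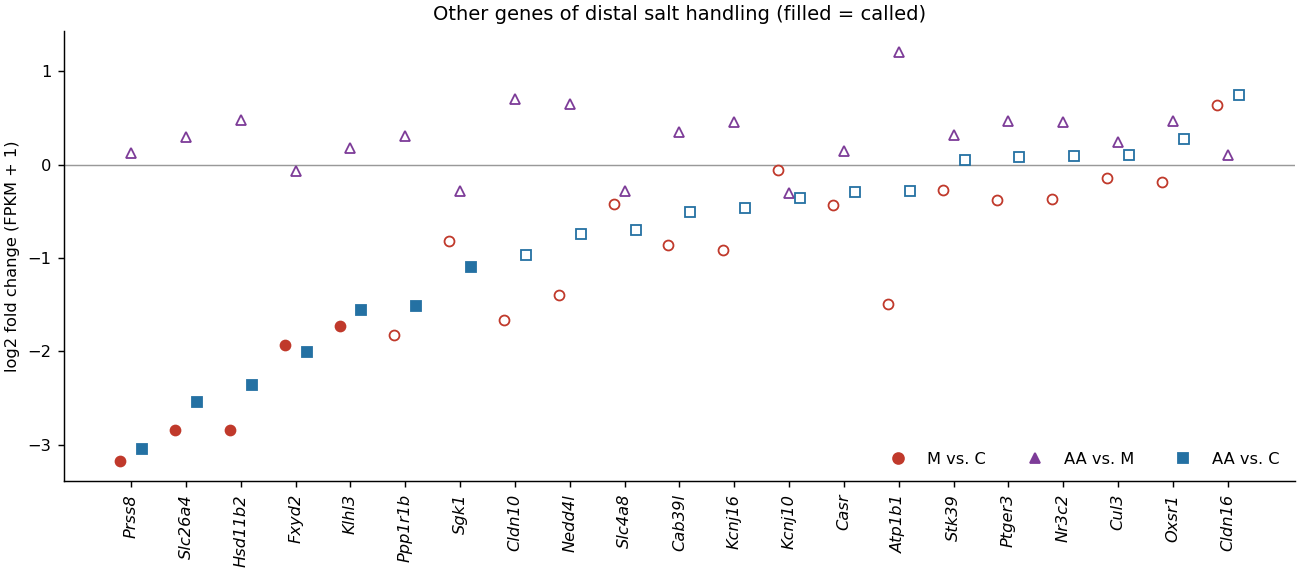
Log2 fold change on the FPKM + 1 scale (vertical axis) of 21 other genes of distal salt handling (horizontal axis, ordered by AA vs. C) in AA vs. C (squares), AA vs. M (triangles) and M vs. C (circles), with called values filled. Filled symbols are all below 0, from Prss8 at -3.17 (M vs. C) to Sgk1 at -1.10, and no triangle is filled.

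Markers of some other cells differed between the groups as well. The summed FPKM of 13 proximal tubule markers was 3203 to 13454 in C, 93.2 to 550 in M and 174 to 581 in AA, with 10 of 13 called lower for M vs. C, and 11 of 13 for AA vs. C, against 1.11% and 9.61% of all genes. With M replicates 1, 4 and 5, or 4 and 5 only, limma called no gene of any list in M vs. C, though 11 of the 13 had an unadjusted p under 0.05 in each. Of 8 other thick limb markers 1 and 2 were called lower (sums of 30.9 to 57.5, 2.80 to 25.0 and 11.3 to 15.3 FPKM in C, M and AA), of 7 other distal convoluted markers 0 and 0 (11.2 to 28.7, 9.68 to 18.9 and 8.60 to 17.1), and of 7 other principal cell markers, 6 of them tested, 3 and 3 (38.5 to 501, 1.78 to 17.9 and 8.76 to 20.9). The intercalated cell sum was 18.5 to 75.9 in C, 8.69 to 30.5 in M and 12.2 to 25.7 in AA, with 1 and 2 of 7 called lower. Some of these distal markers, among them Hsd11b2, Ppp1r1b and Slc26a4, are also among the 21 other distal genes, so their calls are counted in both. Macrophage markers (7) summed to 18.4 to 101, 135 to 397 and 95.5 to 146, fibroblast markers (7) to 66.0 to 149, 131 to 442 and 282 to 482, and tubule injury genes (6) to 44.4 to 401, 181 to 472 and 176 to 224. For M vs. C and AA vs. C, 2 and 3 macrophage markers were called higher and 0 and 1 lower (Csf1r, -1.52). Of fibroblast markers 1 and 6 were called higher, of injury genes 0 and 2, with Krt18 lower in AA vs. C (-1.39). Over all genes, 57 of 21153 and 2241 of 21898 were called higher. In AA vs. M (12.8% of genes called), C1qb was called lower (-1.36), Col1a1 (1.45) and Havcr1 (1.87) higher. Lyz2 (57.4 to 307 FPKM in M and AA) and Spp1 (135 to 452) weigh heavily here. Lymphocyte markers (6) summed to 0.923 to 19.1, 0 to 10.98 and 9.43 to 19.8, podocyte markers (5) to 5.49 to 16.2, 2.38 to 23.7 and 9.18 to 14.6, and endothelial markers (6) to 8.83 to 28.2, 14.0 to 16.9 and 8.80 to 17.8. Their part in the members' values was not tested.

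Some values may include reads of overlapping genes. The library kit does not mark strand, and Scnn1b overlaps Cog7, Slc12a1 Gm14002, Umod Gm44588, Wnk4 Gm11615, and Wnk1 Mir706 and Gm16199 in GENCODE M21, so reads of such pairs could be told apart only outside the overlap.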

How the data were processed

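The authors trimmed reads with fastp, aligned them with HISAT2 2.0.5 and counted them with featureCounts 1.5.0-p3 per the labels, on mm10, and deposited gene values in FPKM. Symbols for the Ensembl identifiers came from GENCODE M21 (GRCm38), which lacked 37 of them and also supplied positions and joined exon lengths. Reads were recovered from the smallest FPKM steps, with 97.8 to 99.4% of values of up to 10 steps whole within 0.03 of a step, which leaves a factor of 2 unsettled. Read numbers carry counting error only, whereas the 95% intervals are limma's, from the spread between mice. The 3 comparisons used limma 3.58.1 (eBayes with trend, R 4.3.3) on log2(FPKM + 1). A gene was tested where 5 or more of the 10 libraries were above 0, with Benjamini-Hochberg adjustment over all genes. No library was left out or imputed, and no pair of libraries was identical. Simulated data of 5 against 5 libraries and 16300 genes were drawn from the C libraries only. There limma called 195 of 200 genes given a log2 change of 2, with 2 false calls. The 200 were drawn only from well-expressed genes with a small spread in C. Recovery of low or widely spread genes, several members among them, was not tested. Recovery with the spread and the values at 0 of the M libraries was not tested. Replicates are separate mice. Members, lists and tests were chosen with earlier results of these data known. Named genes are the members, the 7 listed distal genes called in any comparison, and for 4 members the 3 genes of highest correlation. Stk39, Oxsr1, Cldn10, Cldn16, Slc4a8, Xist, Ddx3y, Gapdh and Aqp2 were named after their values were seen. The same holds for Csf1r, Krt18, C1qb, Col1a1, Havcr1, Lyz2, Spp1, Acsm2, Atp6v1b1, Cd3e, Cd3g, Wt1 and Nphs1. Some other distal genes of the design are not reported here. Alternatives were other pseudocounts, filters and scalings, a replicate block, voom on the recovered reads, and fewer libraries. Python 3.11.15 with scipy 1.17.1 was used. The authors' own fold changes were not used here.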

Additional observations from a re-analysis of the deposited data

Results flagged for a closer look

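The gap of the highest or lowest library to its neighbour, over the whole range of the 5 (Dixon's test, critical value 0.71), was computed for 51 sets of 5 libraries (10 genes and 7 ratios in 3 groups). By chance the critical value marks about 1 in 20 sets of normally distributed values. That rate need not hold for FPKM, which stop at 0. In 9 sets a library lay far from the other 4. In the C group these were Scnn1b in C replicate 2 (15.1 FPKM, median 2.12) and Bsnd in C replicate 4 (2.88 FPKM, median 15.05). In the M group they were Slc12a3 in M replicate 5 (6.02 FPKM, median 0), Scnn1b in M replicate 4 (1.37 FPKM, median 0), Kcnj1 in M replicate 1 (11.997 FPKM, median 1.86) and Scnn1g in M replicate 1 (0.490 FPKM, median 0.114). In the AA group they were Slc12a3 and Scnn1b in AA replicate 2 (2.27 FPKM, median 1.11, and 1.39 FPKM, median 0.111) and the log2 ratio of Slc12a3 to Slc12a1 in AA replicate 5 (-2.37, median -1.64). The sets share libraries and genes and so are not independent.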

How the results depend on the processing

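The 6 members called lower in AA vs. C were called under every alternative run, and the 5 ratios past the threshold numbered 4 to 7 with a library left out. The M vs. C comparison was the least stable. It called 291 genes, but 448 with a mean FPKM of at least 1, 33 with any library above 0, 1609 with TPM, 786 with all 15 libraries in one fit, 1870 with limma voom on the recovered reads, 0 with M replicates 4 and 5 only (2642 at an unadjusted p under 0.05), 0 with M replicates 1, 4 and 5 (2032 so), and 4 (without C replicate 5) to 954 (without M replicate 5) with a library left out. Members called ranged from 0 to 8 there (6 with TPM, 8 with voom), from 0 to 2 in AA vs. M and from 6 to 9 in AA vs. C. For AA vs. M, 2533 genes were called, against 422 with TPM, 1581 with M replicates 4 and 5 and 432 with M replicates 1, 4 and 5, and 1805 to 2897 with a library left out. For AA vs. C, 4346 were called, against 7474 with a pseudocount of 0.1, 6785 with TPM, 7190 with TPM without mitochondrial genes and 8590 with limma voom. Scaling also moved the split of calls. M vs. C had 57 higher and 234 lower, but 31 and 1578 with TPM, 34 and 1836 with voom and 132 and 207 with centring on library medians. AA vs. M had 2321 higher and 212 lower, but 1584 and 695 with quantile normalization and 1213 and 1600 with centring. AA vs. C had 2241 higher and 2105 lower, but 862 and 5923 with TPM, 1603 and 6987 with voom and 1769 and 2638 with centring. The median of all genes shifted with TPM to -0.58 (M vs. C) and -0.39 (AA vs. C), and with centring to -0.35 (AA vs. M). The cause was not tested.

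Same-numbered mice did not vary together (correlations of -0.14 to 0.22, and at most 3 of 10 libraries were closest to their own number), so the number pairs nothing. With the replicate block, M vs. C called 152 genes, and Bsnd was no longer called (-2.05, limma adjusted p = 0.0977). The block gave 2217 calls in AA vs. M and 4345 in AA vs. C, and changed no other member's call.

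Differences that turned sign were all uncalled. In AA vs. M, Slc12a3 was -0.0011 with quantile normalization, -0.14 with centring, -0.88 with M replicates 4 and 5 and -0.18 with M replicates 1, 4 and 5. Scnn1a was -0.12 (TPM), -0.27 (quantile), -0.51 (centring), -0.54 (M replicates 4 and 5) and -0.69 (M replicates 1, 4 and 5), and Scnn1b -0.20, -0.21, -0.50, -0.50 and -0.21 in that order. Kcnj1 was -0.17 with centring and -0.28 with M replicates 1, 4 and 5, where Wnk1 was 0.075 and, in M vs. C, Kcnj1 was 0.19. Umod in AA vs. C was -0.91 with TPM and -0.78 with limma voom. With a library left out, AA vs. M ranged from -0.078 to 0.85 for Kcnj1, -0.25 to 0.25 for Scnn1a, -0.068 to 0.11 for Scnn1b, -0.10 to 0.065 for Wnk1 and -1.01 to 0.11 for Wnk4, and AA vs. C from -0.033 to 0.38 for Umod and -0.21 to 0.067 for Kcnj1. Ratios turned in AA vs. M for Bsnd to Slc12a1 (-0.68 with a pseudocount of 0.1, and -0.30 to 0.55 with a library left out), for Scnn1b to Scnn1a (-0.50 with a pseudocount of 0.1, -0.078 with TPM, and -0.32 to 0.28) and for Wnk4 to Wnk1 (-1.04 to 0.12). Scnn1b to Scnn1a ranged from -0.41 to 0.089 in M vs. C, and for AA vs. C from -0.53 to 0.035. With M replicates 4 and 5 only, M vs. C gave -0.85 for Umod to Slc12a1 and -0.47 for Kcnj1 to Slc12a1, in a test whose smallest exact permutation p was 0.0476. The added alternatives, M replicates 1, 4 and 5 and C replicates 2, 4 and 5, were chosen after seeing the data.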
